A study of Drosophila melanogaster with 3 samples.

Results

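The regions described here are the Hairy peaks at the promoters of noncoding RNA genes of Drosophila melanogaster that stand apart from coding promoters. A peak of the reproducible list on build dm6 was taken when its summit lay within 500 bp of an annotated transcription start site (TSS) of a gene of biotype ncRNA and more than 500 bp from every TSS of a protein-coding gene. Of the 10233 reproducible peaks, 263 met both conditions, which is 2.57% of the list. The remaining peaks fell into 4067 coding promoter peaks, with a coding TSS within 500 bp of the summit, and 5903 distal peaks, with neither kind of TSS in that range. The area that meets the rule is 1.67% of the 6 chromosome arms. It held 118 peaks per Mb, against 265 per Mb in the coding promoter area and 50.7 per Mb in the distal area. How many of the 263 scattered distal peaks alone would give was not tested. The rule used positions only and no measured value of a peak beyond its summit.

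Whole wandering third-instar larvae of mixed sex were used for chromatin immunoprecipitation with sequencing (ChIP-seq). The larvae were of the transgenic strain 15T-GFP, which carries h, the gene for Hairy (hry in the annotation), with GFP fused to its C terminus, and chromatin was precipitated with an antibody to GFP. All 3 biological replicates belong to this 1 group, so no treatment, genotype or stage could be compared, and the binding of whole larvae cannot be assigned to a tissue. The control library named in the labels was not analysed here, and signal that does not depend on the fusion cannot be told apart from binding. The read depth behind the lists is unknown. Each replicate has a list of 30000 peaks, and the strongest 10233 of each, as many as the reproducible list holds, are called its top list below.

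Hairy belongs to the HES family of repressors, which bind DNA through a basic helix-loop-helix domain, and is known for dividing the embryo into segments and for setting where sensory bristles form. It recruits corepressors such as Groucho, and proteins of its family bind E-box-like sites, above all the class C site and related class B and N-box sequences. Long noncoding RNA (lncRNA) genes are transcribed much as coding genes are. Some act as RNAs themselves, some serve mainly as the primary transcripts from which microRNAs (miRNAs) or small nucleolar RNAs (snoRNAs) are cut, and most have no known role.

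Most of these peaks lay at genes annotated as long noncoding RNAs, but not all. By the nearest named gene, 210 of the 263 peaks lay at a gene named lncRNA, 31 at an antisense RNA gene (asRNA), 16 at the start of a miRNA hairpin, 5 at other ncRNA genes such as snoRNA hosts and 1 at a stable intronic RNA (sisRNA). For 15 peaks the miRNA hairpin was the only kind of start in range, and a hairpin start is where processing leaves the RNA, not where transcription begins. The 244 nearest genes had a median annotated length of 669.5 bp, and 228 of them were longer than 200 bp.

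The sequences at 10 of the summits are shown first, because the peaks differ in what they hold. Each is the summit base and 100 bases on each side of it in the RefSeq genome sequence (Release 6, which is dm6), written 5′ to 3′ on the strand of the noncoding gene. Capitals mark any match, on either strand, to 1 of 19 short sequences that earlier work on these lists had named. These are the class B E-box CACGTG, the N-box CACNAG, the class C site CACGCG, the class A E-box CAGCTG, the sequence CAGGTA, the DNA replication-related element (DRE) TATCGATA, the Ohler 1 core promoter motif GGTCACAC, the GAGA repeat GAGAGA, and the CA repeat CACACACA. The other 10 are sequences of 6 letters. One group of them is the sequence ACACTG, the overlapping sequence CACTGA, the sequence ACAGTG, and the overlapping sequence CAGTGC. A further group is the sequence AGTGTA, the palindrome GTGCAC, the sequence CTACAC, and the sequence ATACTA. The last group is the sequence CGATAG together with TATCGA. Several overlap in sequence, such as TATCGA within DRE and CAGTGC with ACAGTG. A match describes the letters and is no evidence of binding.

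The first set holds the strongest peak, at the gene that hosts mir-279 and mir-996, the next strongest, at lncRNA:CR44619, and 2 other strong peaks that lie inside introns of coding genes. The windows are chr3R:29214336-29214536 on the plus strand, chrX:12752263-12752463 on the plus strand, chr2L:18145381-18145581 on the plus strand and chr3R:7075738-7075938 on the minus strand. The strongest window holds none of the 19 sequences, and it was shown for that reason after its values were seen.
lncRNA:CR31044: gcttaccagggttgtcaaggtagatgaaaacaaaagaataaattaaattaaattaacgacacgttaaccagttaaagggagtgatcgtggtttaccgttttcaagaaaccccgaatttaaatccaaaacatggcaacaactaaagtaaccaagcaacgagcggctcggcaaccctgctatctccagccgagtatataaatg
lncRNA:CR44619: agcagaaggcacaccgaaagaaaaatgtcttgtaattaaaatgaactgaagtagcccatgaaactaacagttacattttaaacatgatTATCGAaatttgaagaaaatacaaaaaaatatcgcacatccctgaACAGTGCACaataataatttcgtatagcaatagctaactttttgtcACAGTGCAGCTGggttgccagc
lncRNA:CR44478: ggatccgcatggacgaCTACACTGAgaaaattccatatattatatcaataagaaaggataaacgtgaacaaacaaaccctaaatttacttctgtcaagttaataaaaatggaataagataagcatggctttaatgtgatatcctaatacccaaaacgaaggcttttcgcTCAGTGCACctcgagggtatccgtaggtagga
asRNA:CR45908: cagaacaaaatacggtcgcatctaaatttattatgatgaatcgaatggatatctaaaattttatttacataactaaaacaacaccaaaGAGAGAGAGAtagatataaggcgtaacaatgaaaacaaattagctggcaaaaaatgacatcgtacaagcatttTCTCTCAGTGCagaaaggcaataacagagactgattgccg

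In lncRNA:CR44619 and lncRNA:CR44478 the 6-mers CAGTGC and GTGCAC overlap in 1 run, and asRNA:CR45908 holds a GAGA repeat between 12 and 3 bases before its summit. None of these 4 windows holds a class B or class C site.

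The second set holds peaks at well-studied genes and at genes that host small RNAs. lncRNA:Hsromega, the heat shock RNA gene, had 2 peaks inside the gene, the weaker at chr3R:21296450-21296650 and the stronger at chr3R:21296243-21296443, and lncRNA:flam, the flamenco locus whose transcripts become piRNAs that silence transposons, had 1 at chrX:21631619-21631819. lncRNA:CR43857, which hosts mir-275, is shown at chr2L:7423447-7423647, lncRNA:CR46006, which hosts mir-276a, at chr3L:10331918-10332118, and lncRNA:CR43334, which hosts mir-ban (bantam), at chr3L:628367-628567. All of these genes are on the plus strand. The windows of lncRNA:CR46006 and lncRNA:CR43334 were added after their values were seen.
lncRNA:Hsromega, weaker peak: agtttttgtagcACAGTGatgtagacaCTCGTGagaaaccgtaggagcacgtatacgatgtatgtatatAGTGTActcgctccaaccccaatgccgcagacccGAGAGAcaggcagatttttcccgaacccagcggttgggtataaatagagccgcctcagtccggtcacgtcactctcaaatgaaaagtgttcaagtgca
lncRNA:Hsromega, stronger peak: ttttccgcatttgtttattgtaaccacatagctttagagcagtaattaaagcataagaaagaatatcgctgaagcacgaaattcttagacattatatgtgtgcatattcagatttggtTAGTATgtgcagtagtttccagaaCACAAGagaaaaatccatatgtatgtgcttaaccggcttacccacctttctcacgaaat
lncRNA:flam: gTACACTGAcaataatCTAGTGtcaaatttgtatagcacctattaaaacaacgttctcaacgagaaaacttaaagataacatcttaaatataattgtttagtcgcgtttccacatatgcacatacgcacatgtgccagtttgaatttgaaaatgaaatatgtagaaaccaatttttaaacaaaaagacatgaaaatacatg
lncRNA:CR43857: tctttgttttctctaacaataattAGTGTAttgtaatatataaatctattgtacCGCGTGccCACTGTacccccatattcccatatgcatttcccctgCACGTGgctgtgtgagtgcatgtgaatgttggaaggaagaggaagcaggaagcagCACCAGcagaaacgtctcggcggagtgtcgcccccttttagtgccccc
lncRNA:CR46006: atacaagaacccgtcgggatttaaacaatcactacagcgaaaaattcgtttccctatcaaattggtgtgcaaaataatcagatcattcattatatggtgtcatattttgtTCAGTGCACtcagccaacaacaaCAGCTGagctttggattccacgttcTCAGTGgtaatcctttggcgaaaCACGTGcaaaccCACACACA
lncRNA:CR43334: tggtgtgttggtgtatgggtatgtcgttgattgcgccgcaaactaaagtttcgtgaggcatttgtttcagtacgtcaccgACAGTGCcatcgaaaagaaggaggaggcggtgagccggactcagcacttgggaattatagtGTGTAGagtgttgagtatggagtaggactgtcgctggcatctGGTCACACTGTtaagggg

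The class B E-box CACGTG stands in 2 of these windows. In lncRNA:CR43857 it covers the summit itself, from 2 bases before to 3 bases after it, while in lncRNA:CR46006 it starts 81 bases after the summit. The window of lncRNA:CR43334 holds the Ohler 1 motif.

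The 263 peaks spanned nearly the whole range of strength of the list. The signal value, a score of the authors with no stated scale, had a median of 222.3 at noncoding promoter peaks, 212.9 at coding promoter peaks and 194.2 at distal peaks, and ran from 105.7 to 3438 over the 263. Among the strongest 500 peaks of the list, which are 4.89% of it, were 13 noncoding promoter peaks, or 4.94% of them. The corresponding shares were 6.34% for coding promoter peaks and 3.88% for distal peaks. With the list cut into 5 equal parts from the strongest to the weakest, the numbers of noncoding promoter peaks were 52, 65, 56, 41 and 49. Peak width had a median of 430 bp in each of the 3 classes, and the mean GC content within 100 bp of the summit was 38.7%, against 39.8% at coding promoter peaks and 37.5% at distal peaks.

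Each replicate gave the same picture from its own peaks. The rule selected 260 peaks in the top list of replicate 1, 260 in that of replicate 2 and 273 in that of replicate 3, a mean share of 2.58% ± 0.073 (SD, n = 3). The median of their signal ranks stood at percentile 53.1 ± 1.46 of the top list (SD, n = 3; 100 is the strongest), against 53.0 ± 0.72 for coding promoter peaks and 47.6 ± 0.59 for distal peaks. The difference from distal peaks was +5.50 ± 1.05 percentile points and had the same sign in 3 of 3 replicates, with p = 0.25 in an exact two-sided sign-flip permutation test, the smallest p that 3 replicates allow. The difference from coding promoter peaks, +0.12 ± 2.14 points, was smaller than its spread between replicates (exact p = 1.0). Over the full lists of 30000 peaks it turned to -14.6 ± 1.61 points, so the small difference was seen in the top lists only.

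Most of the peaks recurred in each replicate. The reproducible list was made from the same replicates, so recurrence is not independent evidence. Of the 263, 186 (70.7%) had their summit inside a top-list peak of all 3 replicates, close to the 70.4% of all reproducible peaks. Another 61 were found in 2 top lists, 15 in 1 and 1 in none, and 250 were inside a peak of all 3 full lists. Recovery in the top lists was 88.6% in replicate 1, 90.9% in replicate 2 and 84.8% in replicate 3, a mean of 88.1% ± 3.07. It was 87.7% ± 3.51 for coding promoter peaks and 86.9% ± 2.55 for distal peaks. The difference from coding promoter peaks, +0.35 ± 2.36 points, varied in sign (exact sign-flip permutation p = 0.75). That from distal peaks, +1.14 ± 0.86 points, was higher in 3 of 3 replicates (exact p = 0.25, the smallest possible), but it was -0.48 points in the full lists and +6.35 ± 0.069 in the strongest 5000 peaks of each. Across peaks found in both lists, ranks in pairs of replicates had Spearman correlations of 0.83, 0.76 and 0.76, given as a description of 259, 250 and 253 peaks that share the reproducible selection.

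The strongest peak of all, lncRNA:CR31044, repeated closely in rank. Its gene on chromosome arm 3R is the host of mir-279 and mir-996, and mir-279 is known from work on olfactory neuron fate and on rest and activity rhythm. The summit lay 126 bp upstream of the TSS and 5736 bp from the nearest coding TSS, that of eEF1gamma. With a signal value of 3438 it ranked 16 in the reproducible list, and 22, 15 and 18 in replicates 1, 2 and 3. A separate and weaker peak (signal value 248.5) lay 238 bp upstream of the mir-279 hairpin itself, and ranked 4591, 6005 and 2670. The stronger peak thus lay near the start of the host transcript.

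The next strongest peaks lay at genes known by a CR number, 1 of them a miRNA host. lncRNA:CR44619 on X had a signal value of 2807 and ranked 32, 32 and 25 in the replicates, with its summit 496 bp inside the gene, just within the limit of 500 bp. lncRNA:CR45997, inside an intron of mbl, which encodes a splicing regulator, had 1982 and ranked 79, 71 and 74. Its summit lay 411 bp past the TSS of a gene 410 bp long, so just beyond the 3′ end. lncRNA:CR46102, in an intron of the lipophorin receptor gene LpR2, had 1775 and ranked 100, 82 and 103. The ranks of each of these 3 peaks differed by at most 21 between replicates. lncRNA:CR44676 (1766), asRNA:CR45999 (1661) and lncRNA:CR43626, the host of mir-282 (1595), followed. The summit at lncRNA:CR44676 was also beyond the 3′ end, 385 bp past the TSS of a gene of 371 bp. lncRNA:CR43626 ranked 66, 68 and 80 in the replicates against 131 in the reproducible list.

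**Figure D1:**
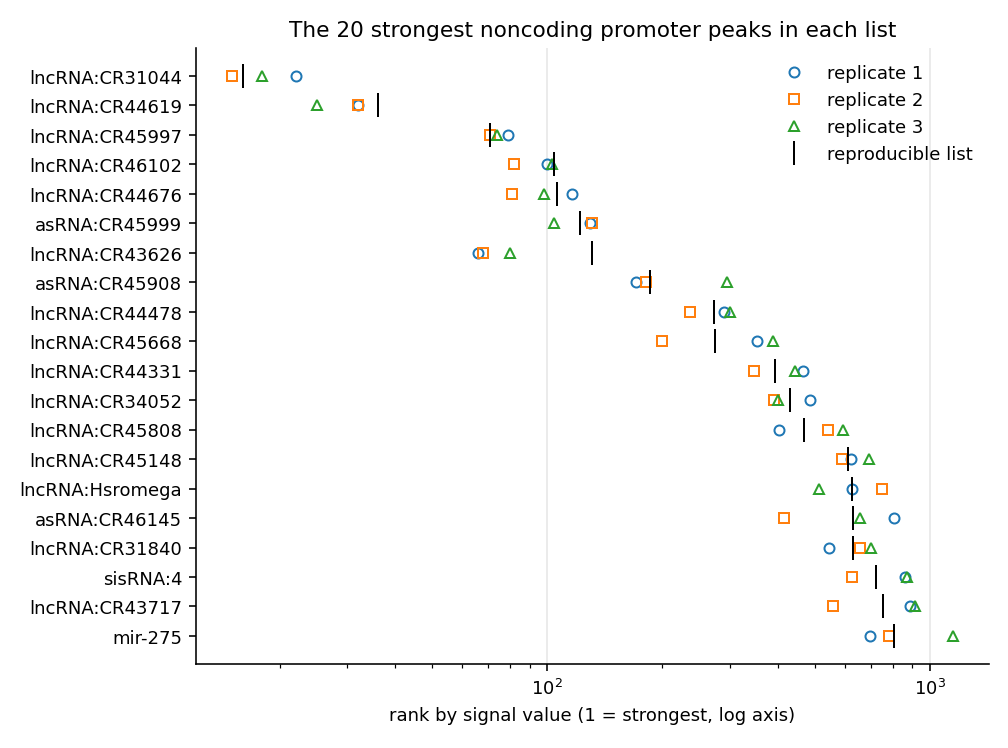
Rank by signal value (horizontal, log axis, 1 is the strongest) of the 20 strongest noncoding promoter peaks in each of the 3 replicate lists (open symbols) and in the reproducible list (vertical bars). Ranks run from 16 for lncRNA:CR31044 to 806 for mir-275 in the reproducible list, and the symbols of most rows lie close together.

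Of the 20 strongest peaks, 10 had their summit in an intron of a coding gene, among them those in mbl and LpR2. asRNA:CR45908 lay in CG1943 (signal value 1351), lncRNA:CR44478 in Socs36E (1179), an inhibitor of JAK/STAT signalling, and lncRNA:CR44331 in puc (1006), the phosphatase that restrains JNK signalling. lncRNA:CR34052 lay in Raf (963.3), a kinase of the MAPK pathway, lncRNA:CR45808 in Hipk (924.5), and asRNA:CR46145 in FER (800.6). lncRNA:CR43717 (720.3) had its summit in an intron of ex, which encodes the Hippo pathway protein Expanded, and sisRNA:4 (738.6) in an intron of dpn, which encodes deadpan, another HES-family repressor. The nearest coding TSS was between 643 bp (asRNA:CR46145) and 8281 bp (lncRNA:CR43717) from these summits. Whether such a peak acts on the noncoding gene or on the gene around it cannot be told apart by position. sisRNA:4 is a stable intronic RNA on the same strand as dpn. Whether its annotated start is a start of transcription was not tested. The other peaks among the 20 strongest were lncRNA:CR45668 (1177), whose nearest coding gene was Act5C, lncRNA:CR45148 (812.5), lncRNA:Hsromega (805.7), lncRNA:CR31840 (797.6) and mir-275 (691.5).

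Counted over all 263, 173 summits (65.8%) lay outside every coding gene, 80 (30.4%) in an intron of one, 9 in an untranslated exon and 1 in a coding exon. The noncoding gene overlapped no coding gene at 157 peaks, a coding gene on the opposite strand at 77, one on the same strand at 26 and both at 3. The nearest coding TSS was at most 1000 bp away at 50 peaks, over 1000 and up to 5000 bp at 132 and farther at 81, with a median of 2843 bp against 3575 bp for distal peaks. At 130 of the 263 (49.4%, exact 95% interval 43.2 to 55.6) the nearest coding gene also had a bound promoter, compared with 57.3% of distal peaks. Arm 2L held 64 of the peaks, 2R had 56, 3L had 58, 3R had 53 and X had 32. These were 3.43%, 2.97%, 2.61%, 2.22% and 1.73% of the reproducible peaks of each arm. None of the 25 reproducible peaks of chromosome 4 met the rule, but 25 are too few to tell this from the 2.57% of the list.

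A smaller share of noncoding than of coding genes had a bound promoter. Of 2296 named noncoding genes with a TSS more than 500 bp from every coding TSS, 238 had a noncoding promoter peak within 500 bp of it. That is 10.4% (exact 95% interval 9.15 to 11.7, counting error only). A gene whose only summit in range was also within 500 bp of a coding TSS was counted as not bound. The mean over the replicate top lists was 10.2% ± 0.33 (SD, n = 3). The share of coding genes with a summit within 500 bp of a TSS was 29.8%, and 30.6% ± 0.82 over the replicates, so the replicate values of the 2 kinds did not overlap. These shares were not counted alike, because the coding share takes any summit at any TSS. Counted in that way, 402 of 2780 noncoding genes (14.5%) were bound, and 14.4% ± 0.73 over the replicates. Counted per TSS, 233 of 2159 noncoding TSSs far from coding ones, hairpins left out (10.8%), had a noncoding promoter peak in range. Noncoding TSSs with only a coding promoter peak in range are in neither number. Of 19253 coding TSSs, 5583 (29.0%) had a summit in range. Noncoding genes whose TSS lay within 500 bp of a coding TSS, which the rule leaves out, were bound in 147 of 502 cases (29.3%). By kind, again for TSSs far from coding ones, 193 of 1694 lncRNA genes (11.4%), 22 of 328 antisense RNA genes (6.71%) and 17 of 231 miRNA hairpins (7.36%) were bound. For tRNA genes the share was 11.0%, for snoRNA genes 7.81% and for pseudogenes 5.22%, counted at any TSS. With any TSS counted, it was 14.4% for lncRNA genes, 17.3% for antisense RNA genes and 9.23% for miRNA hairpins.

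The share was larger among genes that carry miRNA hairpins. Of 35 such host genes with a TSS far from coding TSSs, 13 (37.1%, exact 95% interval 21.5 to 55.1) had a bound promoter, in contrast to 205 of 2023 genes (10.1%, interval 8.85 to 11.5) that host neither a miRNA nor a snoRNA. The replicate top lists gave 37.1%, 28.6% and 31.4% for the hosts and 9.89%, 9.94% and 10.7% for the other genes. The share was thus higher for the hosts in 3 of 3 replicates. The replicates score the same genes and also gave the reproducible list, so this is not independent evidence. Hosts were longer, with a median of 6494 bp against 703 bp, and had 1.63 annotated TSSs per gene against 1.05. Restricted to genes with 1 TSS, 7 of 22 hosts (31.8%) and 192 of 1942 others (9.89%) were bound. The host sets were drawn up after the bound genes had been seen, and no p is given.

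The bound hosts include those of several conserved miRNAs. Besides lncRNA:CR31044 and lncRNA:CR43626, they were lncRNA:CR43650, host of mir-8, lncRNA:CR43857, host of mir-275, lncRNA:CR43651, host of mir-14, and lncRNA:CR43334, host of mir-ban. lncRNA:CR42651 hosts mir-10, lncRNA:CR45916 mir-9a, lncRNA:CR46006 mir-276a and lncRNA:CR44206 mir-184. The remaining 3 were lncRNA:CR45345, host of mir-375, lncRNA:CR43314, host of mir-bft, and lncRNA:Hsromega, within which mir-4951 is annotated. Well-known miRNAs are not particular to the bound hosts. The hosts not bound included lncRNA:CR45361 (mir-1), lncRNA:CR45919 (mir-124), lncRNA:let7C (mir-let7, mir-100 and mir-125) and lncRNA:iab4 (mir-iab-4). mir-8 is known from growth control in the fat body, mir-14 from hormone signalling and cell survival, bantam from tissue growth and mir-9a from sensory organ precursors. The peaks of the bound hosts differed widely in strength. lncRNA:CR43650 had a signal value of 682.9 and ranked 750, 959 and 1029 in the replicates, with its summit 194 bp upstream of an internal TSS and 1400 bp inside the gene. lncRNA:CR43651 had 501.2, with its summit 55 bp upstream, and ranked 1409, 1413 and 1705. The weakest were lncRNA:CR45916 (117.4), in 2 of 3 top lists, and lncRNA:CR44206 (122.7) and lncRNA:CR45345 (105.7), each in 1 of 3. asRNA:CR46194, which holds mir-281-1 and mir-281-2 and whose summit is in an intron of Oda, had 357.9 and ranked 2090 and 2139 in replicates 2 and 3, with no peak at its summit in replicate 1. It is not among the 35 hosts, because its own TSS lies within 500 bp of a coding TSS. Like lncRNA:CR43650, the bound hosts lncRNA:CR46006 and lncRNA:CR44206 had peaks nearest to internal TSSs only. These lay 8517 and 40505 bp inside lncRNA:CR46006 and 7396 bp inside lncRNA:CR44206.

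Some host genes had a peak at the host TSS and another near the hairpin. At mir-14 the second peak (signal value 226.5) lay 392 bp past the hairpin start, and at mir-275 it (691.5) lay 425 bp before it, while the peak at the TSS of the mir-275 host lncRNA:CR43857 had 575.4. The hairpins of mir-34 and mir-277, whose host lncRNA:CR43459 had no peak at its own TSS, had peaks of 193.6 and 153.7, and mir-34 ranked 6301, 4606 and 17843 in the replicates, with replicate 3 far below the others. The bantam host lncRNA:CR43334 had 2 peaks, 243 bp upstream of its first TSS and 3 bp upstream of another, of 166.0 and 150.0 in signal value, which fell within 1 peak of replicate 3.

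**Figure D2:**
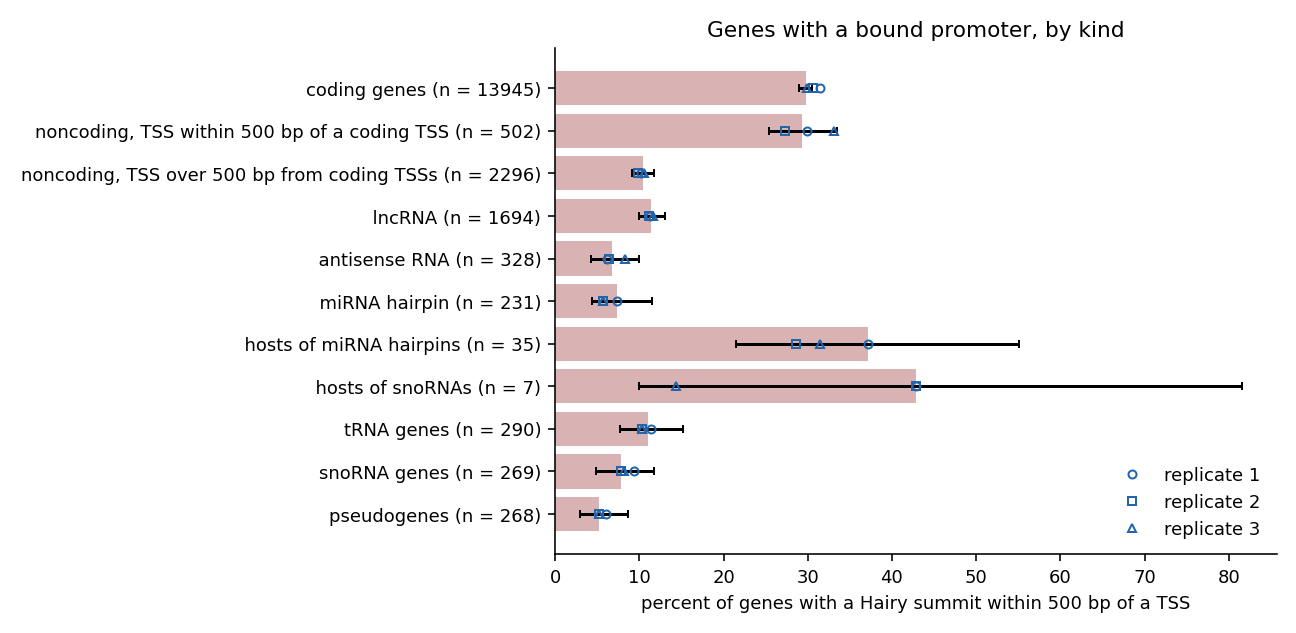
Percentage of genes (horizontal) with a Hairy summit within 500 bp of a TSS, by kind of gene, with exact 95% binomial intervals (black bars) and the values from the top list of each replicate (open symbols). The lncRNA, antisense RNA, hairpin and host rows count TSSs more than 500 bp from coding TSSs and only noncoding promoter peaks. So does the row of noncoding genes with such TSSs, while the other rows count any summit. Hosts of miRNAs reached 37.1% and coding genes 29.8%, while stand-alone noncoding genes stood at 10.4%.

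Among snoRNA hosts, 3 of 7 with a TSS far from coding TSSs were bound, namely Uhg1, Uhg3 and Uhg4. Uhg4 was the strongest, with a signal value of 665.0 and ranks of 686, 1086 and 1098, and its summit was 76 bp upstream of the TSS and 539 bp from a coding TSS. Uhg1 (125.3) and Uhg3 (118.9) were near the bottom of the list, and Uhg1 ranked 18393 in replicate 3 against 7960 and 6508 in the others. Uhg2 and Uhg8 had summits 69 and 81 bp from their TSSs, but also within 500 bp of a coding TSS. Uhg5 and Uhg7 had none in range, with the nearest summits 3047 and 1460 bp away.

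Well-studied noncoding genes gave a mixed picture. lncRNA:roX1 and lncRNA:roX2 encode the RNAs of the dosage compensation complex that coats the male X. The roX1 TSS had a summit 31 bp inside the gene with a signal value of 181.3 and ranks of 5892, 5643 and 7726, whereas the summit nearest to roX2 lay 1380 bp away. At lncRNA:flam the summit was 172 bp upstream (244.2; ranks 5144, 3637 and 4141). lncRNA:yar, which lies by the yellow gene y, had a weak peak (119.5) 142 bp upstream, with ranks of 9303, 11750 and 11584, below the top list in replicates 2 and 3. lncRNA:TS2 (247.9) had its summit 39 bp upstream of its TSS. RNaseMRP:RNA (172.9) had its summit 420 bp past its own, beyond the 3′ end of a gene 382 bp long.

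lncRNA:Hsromega had 2 overlapping sites of very different stability. The stronger summit, 216 bp past the start of the gene, had a signal value of 805.7 and ranked 627, 748 and 514 in the replicates. The weaker, 423 bp past the start of the gene and 71 bp upstream of an internal TSS, had 296.4 and ranked 3306, 7232 and 23101, the widest range among the 250 peaks found in all 3 full lists. Next in range were lncRNA:CR46445 (6692, 7451 and 24854) and lncRNA:CR46243 (5476, 8199 and 19913), and in all 3 cases it was replicate 3 that ranked the peak low. The listed genes bxd, iab8 and iab4 of the bithorax complex, let7C, cherub, acal, CRG, sphinx, noe, Vinr, 7SL RNA and RNaseP RNA had no peak of this kind, nor did lncRNA:TS1, lncRNA:TS3 and the hairpins mir-iab-4, mir-iab-8 and mir-bft. The listed symbols Uhg6, 7SK, IBIN, sisR-1, MRE1, RNaseZ and pncr were not matched to a gene of this biotype. The summit nearest to lncRNA:bxd was 2365 bp from its TSS.

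One of the peaks lay near the gene that encodes Hairy itself. lncRNA:CR44526 has hry as its nearest coding gene, at 16628 bp from the summit. The summit was 120 bp upstream of the lncRNA TSS, had a signal value of 494.4 and ranked 1358, 1396 and 1101. Its window holds an N-box, a CA repeat and ACAGTG.

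A few genes had several summits. lncRNA:CR44605 had 3, of 357.9, 187.7 and 182.4, the last of them absent from the full list of replicate 3, and 17 genes had 2 each. lncRNA:CR42874 (266.0 and 210.7) and asRNA:CR43426 (123.6 and 108.7) were among the latter, and in replicate 3 each pair fell within 1 peak, as asRNA:CR43426 did in all 3. Over all 263 peaks, 22 overlapped another of them, so neighbouring summits are not independent. At 10 peaks more than 1 noncoding gene was in range.

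Just inside the limit of 500 bp to a noncoding TSS lay lncRNA:CR46204 and lncRNA:CR45973 at 495 bp and lncRNA:CR44619 at 496 bp, with signal values of 418.0, 115.6 and 2807. Just outside it lay sncRNA:204 at 501 bp (164.2), an unnamed mature miRNA entry at 501 bp (143.0) and lncRNA:CR44363 at 503 bp (953.8). At the limit to coding TSSs, lncRNA:CR45233, lncRNA:CR43817 and lncRNA:CR44831 were kept at 502, 506 and 510 bp, with 109.6, 263.2 and 115.2. Peaks at lncRNA:CR44743, lncRNA:CR45010 and lncRNA:CR42868 were left out at 486, 488 and 496 bp, with 175.0, 203.3 and 187.5.

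Summits lay farther from noncoding TSSs than from coding TSSs. Distances are to the nearest annotated TSS, which was not the outermost start of its gene at 14 of the 263 peaks. The median distance was 214 bp at the 263 peaks and 107 bp at coding promoter peaks. Within 100 bp of the TSS were 62 of the 263 (23.6%, exact 95% interval 18.6 to 29.2) and 47.6% of coding promoter peaks. In the replicate top lists these shares were 24.3% ± 3.07 and 47.5% ± 2.11 (SD, n = 3), a difference of -23.1 ± 3.77 points with the same sign in 3 of 3 replicates (exact sign-flip permutation p = 0.25, the smallest possible). The summit was upstream of the TSS at 156 peaks (59.3%), against 73.1% of coding promoter peaks. The rule admits any summit up to 500 bp away, and the noncoding summits were spread over that whole range. Bins of 100 bp held from 4.18% (200 to 300 bp) to 16.0% (-100 to 0 bp) of them. How far this departs from an even spread was not tested.

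**Figure D3:**
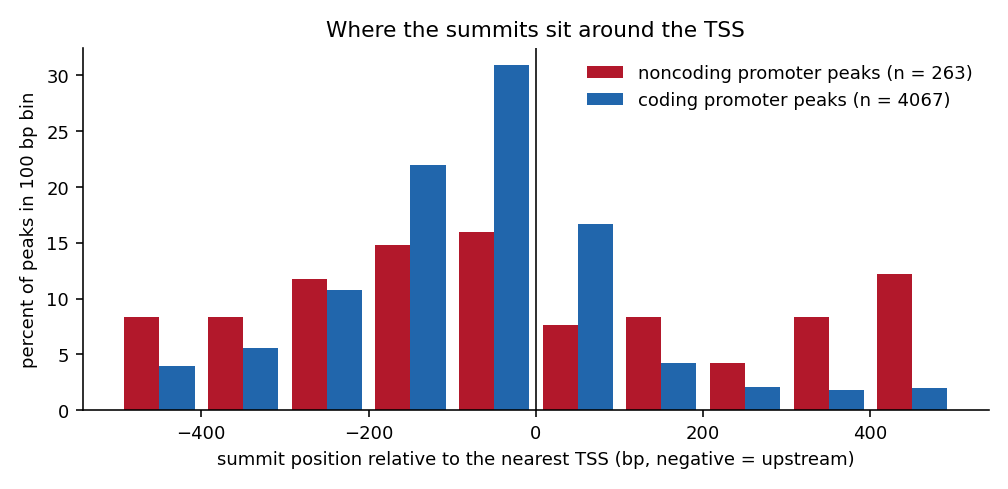
Position of the summit relative to the nearest TSS (horizontal, bp, negative is upstream) as the percentage of peaks in bins of 100 bp, for noncoding and coding promoter peaks of the reproducible list. Coding promoter peaks gather just upstream of the TSS, with 30.9% in the bin from -100 to 0 bp, where noncoding promoter peaks have 16.0%, and the latter extend to 12.2% in the bin from 400 to 500 bp.

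Some short sequences differed in share between the summits of noncoding and coding promoter peaks. DRE, the site of the factor DREF at promoters of housekeeping genes, was found within 100 bp of the summit in 0 of 263 noncoding promoter peaks, which allows a share of up to 1.14%, compared with 6.93% of coding promoter peaks and 0.42% of distal peaks. Ohler 1, another motif of housekeeping promoters, was found in 1 peak (0.38%), that of the bantam host, compared with 4.65% and 0.46%. At least 1 of the pair was present in 1 of 263 noncoding and in 453 of 4067 coding promoter peaks (11.1%), so most coding promoter peaks held neither. The share was 0.88% at distal peaks. In the replicate top lists the difference from coding promoter peaks was -6.77 ± 0.74 points for DRE and -4.64 ± 0.74 points for Ohler 1, lower in 3 of 3 replicates for both (exact sign-flip permutation p = 0.25 each, the smallest possible).

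The lower shares depended in part on the distance of the summit from the TSS. With summits within 100 bp of the TSS, DRE was in 0 of 62 noncoding and 11.5% of coding promoter peaks, and with summits farther out in 0% and 2.77%. With summits over 100 bp out, the interval of the difference included 0 for Ohler 1 (-1.50 points) and for the class A E-box (-3.84 points), and 3 sequences rather than 5 were lower by the interval. Within these bins the distances of the classes still differ. The 6-mers CGATAG (2.66% against 16.5%) and TATCGA (7.60% against 20.6%) were also rarer than at coding promoters, and TATCGA is part of DRE. The class A E-box, which proneural proteins bind, followed them with 5.32% against 13.3% of coding and 7.00% of distal peaks, and differed from coding promoter peaks by -6.70 ± 0.80 points over the replicates. At distal peaks CGATAG was found in 4.05% and TATCGA in 7.56%.

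Sites that proteins of the HES family bind were present at shares that overlapped those of coding promoter peaks. The class C site was found in 6.08% of the 263 peaks (exact 95% interval 3.52 to 9.69), in 7.82% of coding promoter peaks and in 5.17% of distal peaks. The class B E-box was found in 9 peaks (3.42%, interval 1.58 to 6.40), against 2.46% and 1.81%, and the N-box in 64 (24.3%, interval 19.3 to 30.0), against 22.8% and 18.4%. The 95% Newcombe interval of the difference from coding promoter peaks ran from -4.20 to 1.92 points for class C, from -0.73 to 3.95 for class B and from -3.48 to 7.17 for the N-box, so each included 0. With both distance limits at 1000 bp the difference for class C was -3.06 points, and its interval lay below 0. In the replicates, class C differed from coding promoter peaks by -1.89 ± 0.21 points, lower in 3 of 3, and the differences for class B and the N-box varied in sign. In 526 windows placed 1000 bp from the same summits, class C was found in 5.89%, class B in 2.28% and the N-box in 20.9%. Of these windows, 66 were centred in a reproducible peak. How far the summits differ from them was not tested.

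**Figure D4:**
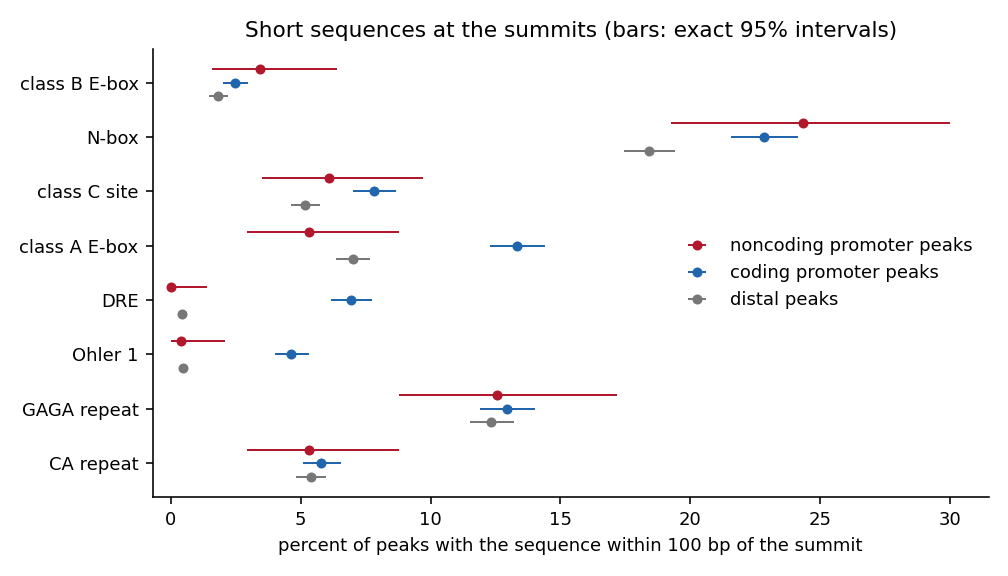
Percentage of peaks (horizontal) that hold each sequence within 100 bp of the summit, in noncoding promoter, coding promoter and distal peaks of the reproducible list, with exact 95% binomial intervals. DRE and Ohler 1 stand at 0% and 0.38% in noncoding promoter peaks and at 6.93% and 4.65% in coding promoter peaks, while the intervals of the class B, class C and N-box sequences overlap those of coding promoter peaks.

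Of the 9 peaks with a class B E-box, 5 were at genes that host miRNAs or snoRNAs, although host genes account for 21 of the 263 peaks. They include the peaks of lncRNA:CR43650 (mir-8), lncRNA:CR43857 (mir-275) and lncRNA:CR46006 (mir-276a). The other 4 were at lncRNA:CR45595, mir-4962, lncRNA:CR43973 and lncRNA:CR45243. These peaks were singled out after their sequences had been read, and no test is given.

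Another 4 6-mers were more frequent at noncoding than at coding promoter summits, but not under each setting. AGTGTA was found in 18.6% against 10.8%, GTGCAC in 7.98% against 5.04%, CACTGA in 18.3% against 13.0% and CAGTGC in 18.6% against 14.1%, each higher in 3 of 3 replicates. The replicate differences were +7.21 ± 2.65, +5.85 ± 0.56, +4.46 ± 0.69 and +4.74 ± 1.47 points (exact sign-flip permutation p = 0.25 each). The 95% interval of the difference in the reproducible list began at 0.15 points for GTGCAC and at 0.11 for CAGTGC. With 50 bp each side of the summit 0 of the 19 sequences were higher by the interval, with the window at the TSS 1, and above the median signal value 2. At distal peaks the shares were 15.7%, 9.27%, 16.0% and 17.8%. In the 526 windows 1000 bp from the summits they were 5.89%, 4.75%, 9.13% and 8.75%. With the window placed at the TSS in place of the summit, the difference was -2.03 points for CACTGA and -7.39 points for ACACTG.

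Bound and unbound noncoding TSSs were then compared by their own sequence, with the window of 100 bp each side placed at the TSS and hairpin starts left out. Bound TSSs had a noncoding promoter peak within 500 bp, and unbound TSSs had no summit in that range. GAGA repeats were found at 15.5% of 233 bound and 6.75% of 1926 unbound stand-alone noncoding TSSs, a difference of +8.70 points (95% Newcombe interval 4.45 to 14.0). CAGTGC was found at 18.9% against 10.2% (+8.71, interval 3.98 to 14.4), ACAGTG at 13.3% against 7.63%, the class C site at 6.87% against 3.69% (+3.18, interval 0.42 to 7.25) and the CA repeat at 8.15% against 4.78%. For these 5 sequences the share was higher at bound TSSs in 3 of 3 replicates (exact sign-flip permutation p = 0.25 each). The 5 sequences named first were all more frequent at bound than at unbound coding TSSs too. There the GAGA repeat was at 12.6% against 8.57%, CAGTGC at 13.5% against 10.4%, ACAGTG at 13.4% against 8.21%, the class C site at 8.10% against 5.72% and the CA repeat at 5.34% against 3.45%. These intervals cover counting error only, and nearby TSSs share sequence. Earlier work on these same lists had named the 19 sequences, so an excess at bound TSSs is not independent evidence. The mean GC content of the windows was 44.2% at bound and 41.2% at unbound noncoding TSSs, and its part in these shares was not tested.

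DRE and Ohler 1 were rare at noncoding TSSs whether bound or not. DRE was at 0 of 233 bound and 0.83% of unbound noncoding TSSs, and Ohler 1 at 0.43% and 0.47%. At coding TSSs they were found more often at bound ones, DRE at 9.31% against 5.27% and Ohler 1 at 7.72% against 4.85%. The class A E-box was at 8.15% of bound and 7.94% of unbound noncoding TSSs, and at 17.9% and 11.6% of coding ones. Whether the bound and unbound contrast differs between the classes was not tested over the replicates.

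**Figure D5:**
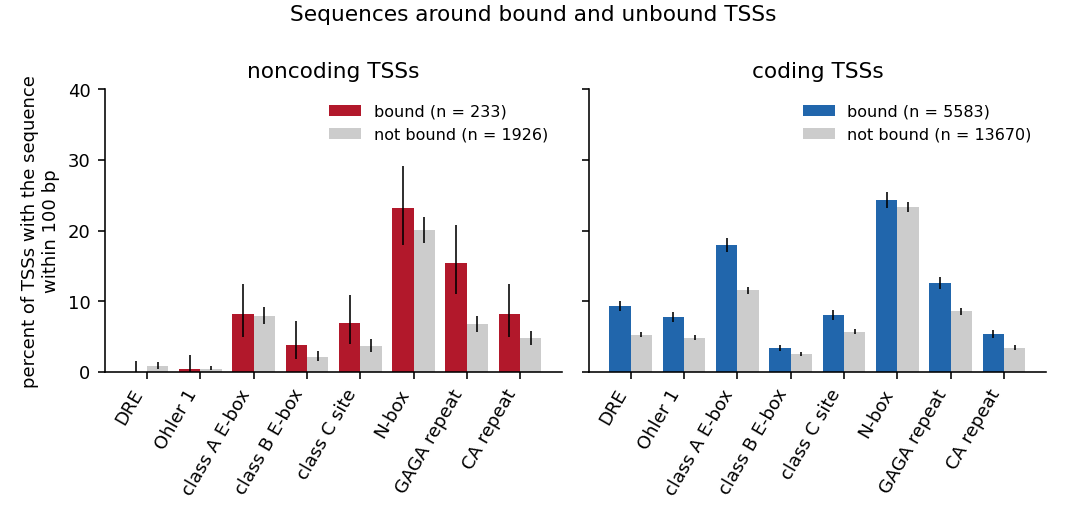
Percentage of TSSs (vertical) that hold each sequence within 100 bp, at bound and unbound noncoding TSSs far from coding TSSs (left) and coding TSSs (right), with exact 95% binomial intervals. Bound TSSs have a Hairy summit within 500 bp, which at noncoding TSSs must be a noncoding promoter peak, and unbound TSSs have no summit in that range. GAGA repeats stand at 6.75% of unbound and 15.5% of bound noncoding TSSs, whereas DRE and Ohler 1 are at 0.83% or less there and reach 9.31% and 7.72% at bound coding TSSs.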

How the data were processed

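ChIP-seq of an h-eGFP fusion was carried out in 3 biological replicates of whole larvae, and what was analysed are peak lists deposited by the authors on build dm6: 1 list of 30000 peaks per replicate, 1 pooled list of 30000 and a list thresholded by the irreproducible discovery rate (IDR) with 10233 peaks, per the deposited notes. The sources used here name no aligner, peak caller or IDR threshold. Peaks were called per replicate and on pooled reads. For each peak the authors deposited a signal value, which is a score with no stated scale and was used only for ranks within a list, a −log10 q-value, at its highest value for 213 of the 263 peaks, and the summit as an offset from the peak start, a deposited value in bp. Lists on dm3 were not used here.

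Summits were compared with every TSS of the Ensembl release 115 annotation on 6 chromosome arms (limit 500 bp), and with the 19 short sequences in 100 bp each side, on both strands. Values over replicates are mean ± SD of the top lists, tested by an exact two-sided sign-flip permutation test. Exact (Clopper-Pearson) 95% intervals of shares, Newcombe intervals of differences and the limit for a count of 0 (3 counts) cover counting error only, since peaks are not replicates. The 19 intervals were not adjusted for their number. The scripts were checked on simulated positions and sequences, and used Python 3.11.15, numpy 2.4.6, pandas 2.3.3, scipy 1.17.1, statsmodels 0.14.6 and matplotlib 3.10.9.

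The members, gene lists and sequences were chosen with earlier results of these data known. Peaks are named when among the 20 strongest, at a gene of lists of studied noncoding RNAs, among the 8 strongest at hosts of small RNAs, nearest to either limit, widest or narrowest in rank range, or at the 3 genes with most peaks. Others are said to be chosen after their values were seen, as are the remaining miRNA hosts, the hairpins and lncRNA:CR44526. Alternatives were other distance limits, lists, windows and TSS sets, and leaving out each replicate. The sequence of 1 further window is not reported here.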

Additional observations from a re-analysis of the deposited data

How the results depend on the processing

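The number of peaks, 263, was 170 with both limits at 250 bp, 151 above the median signal value and 782 in the pooled list. The mean top-list share of 2.58% was 1.70% at 250 bp, 3.50% at 1000 bp and 2.77% in the top 5000. Recovery of 88.1% was 83.8% with replicate summits within 100 bp, 98.2% in the full lists and 52.5% in the top 5000. The difference in recovery from coding promoter peaks turned from +0.35 to -0.049 points at 1000 bp, and that from distal peaks from +1.14 to -0.096 with summits within 100 bp and to -0.48 in the full lists, while it was +6.35 in the top 5000. The median percentile of 53.1 was 49.8 in the full lists, and its difference from coding promoter peaks turned to -14.6 there and to -0.35 at 1000 bp. The share of bound genes, 10.4%, was 6.51% at 250 bp, 15.3% at 1000 bp and 6.23% above the median signal. By the interval, 4 sequences were higher than at coding promoter peaks and 5 lower. The number higher was 0 with 50 bp each side, 1 at the TSS and 2 above the median signal. The number lower was 6 at the TSS and 6 with both limits at 1000 bp, where the class C site was lower too (-3.06 points). It was 3 with summits over 100 bp from the TSS, an alternative chosen after seeing the data. At the TSS the difference reversed for ACACTG (-7.39) and CACTGA (-2.03). The cause of each change was not tested.

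Leaving out each replicate in turn, the difference from coding promoter peaks ran from -0.68 (without replicate 2) to 1.64 points for recovery, and from -1.10 (without replicate 2) to 0.93 for the percentile. The difference in motif share ran from -0.47 to 0.55 points for the class B E-box, from -0.11 to 0.92 for CAGGTA, from -0.23 to 0.52 for the GAGA repeat and from -0.49 to 0.058 for the CA repeat. The other replicate means recomputed in this way kept their sign. Motif differences from distal peaks and between bound and unbound TSSs were not recomputed so. No paired analysis was possible because all samples belong to 1 group, so that pairing could only set classes of peaks side by side within each replicate, as the sign-flip tests did. The depth of the libraries is unknown, and 3 replicates cannot reach a p below 0.25.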
